A study of Mus musculus with 7 samples.

Results

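The genes described are 10 regulators and markers of pluripotency and of the germline, namely Pou5f1, Nanog, Sox2, Zfp42, Esrrb, Tdgf1, Lin28a, Dppa3, Ddx4 and Dazl, among 21440 mouse protein-coding genes with a known transcription start site (TSS). They were chosen by name. For each gene, the open chromatin peaks that overlapped its RefSeq span on mm10 plus 10 kb on each side were taken from every library, and a promoter was counted as having a peak where one lay within 1 kb of any of its TSSs. A pluripotent cell is held in its state by a small circuit of transcription factors that activate one another, with Pou5f1 (also called Oct4), Sox2 and Nanog at its core. Germ cells share several of these genes and add RNA-binding proteins of their own, such as Ddx4 and Dazl. Both programs are shut off in most adult tissues, and MuSCs, the PAX7-positive stem cells that rebuild damaged muscle, are committed to that tissue.

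The data are ATAC-seq, in which the Tn5 transposase cuts and tags DNA where chromatin is accessible. Each library was made from 5000 MuSCs freshly sorted from mouse skeletal muscle. There were 4 Nedd4L-cKO and 3 WT libraries. In the cKO mice, Cre driven by the Pax7 gene deletes floxed exon 15 of Nedd4l, an E3 ubiquitin ligase gene that is then still transcribed but has no catalytic activity. The mice were males a few weeks old on a C57BL/6 background, and the genotype of the WT mice at the Cre and floxed alleles was not given in the sources used here. The comparison asks whether accessibility differs when Nedd4L activity is lost. Peak lists do not show the deletion, so they could not be used to check the genotype labels.

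Libraries held 14.4 to 20.1 M tags (mega) after duplicate positions were removed and 69302 to 79158 peaks each. WT replicate 3 was the only library from lane 2 and the shallowest. The share of broad peaks that held a narrow peak was higher in WT replicates 1 and 2 (92.5% and 92.8%) than elsewhere (84.7% to 87.3%). All 7 MuSC genes listed, among them Pax7, Myod1 and the sorting antigen gene Itga7, had a promoter peak in every library, as did the 4 housekeeping genes reported. Of 11 genes of other cell types that a sort could carry over, 7 had no promoter peak in any library, including the immune genes Ptprc, Itgam and Cd68, while Kdr (endothelial), Dpt (fibro-adipogenic) and Acta1 (myofiber) had one in all 7 and Ckm (myofiber) had one in 5. For comparison, 31.3% of all protein-coding genes had no promoter peak in any library and 63.4% had one in all 7. Whether other cells contributed to the results below was not tested. No peak means that none was called at this depth, and it does not measure how little signal was there.

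Of the 10 genes, 5 had no promoter peak in any of the 7 libraries. These were the pluripotency transcription factor genes Pou5f1, Nanog and Zfp42, the Nodal co-receptor gene Tdgf1 and the germline RNA helicase gene Ddx4. Across all protein-coding genes the share without a promoter peak in any library was 31.3%. Sox2, Esrrb and Dazl had a promoter peak in all 7 libraries, against 63.4% of all genes. Dppa3 and Lin28a lay between, with a promoter peak in 3 and 2 libraries, a state held by 5.26% of all genes. With 10 genes these counts describe the genes and do not set them apart from other genes.

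**Figure D1:**
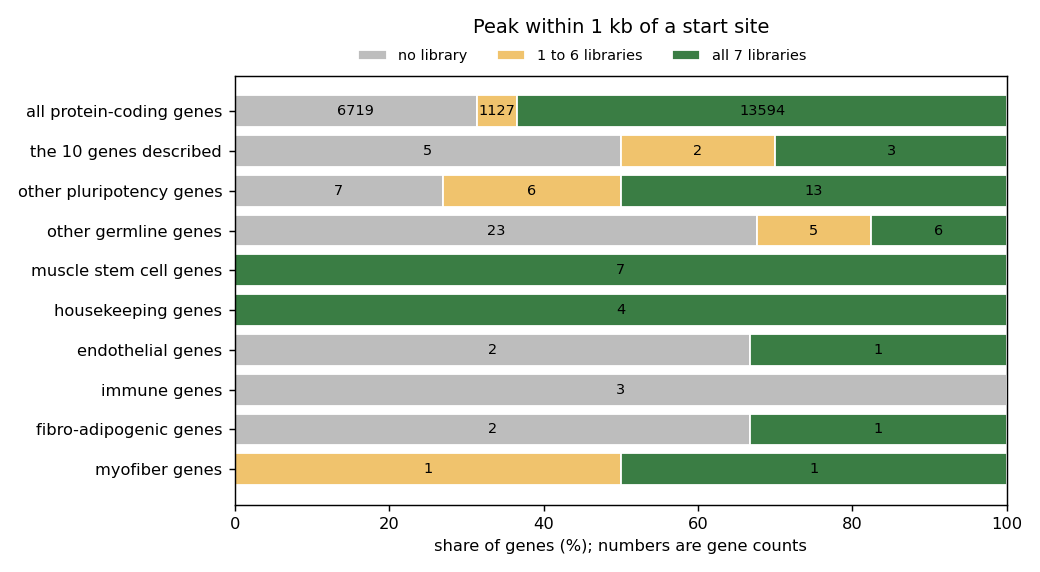
Share of genes (x axis, percent) with a peak within 1 kb of a start site in no library (grey), in 1 to 6 (yellow) and in all 7 (green), for all protein-coding genes and for each gene list, with gene counts printed on the bars. The 10 genes divide 5, 2 and 3, and the 7 muscle stem cell genes and 4 housekeeping genes are green.

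Promoters that differ in peaks and in CG content are printed here as RefSeq gives them on GRCm38.p6, from 250 bases before the TSS to 50 bases from it, 5′ to 3′ on the strand of the gene, with every CG dinucleotide in capitals. Cytosines in CG are the sites of DNA methylation in mammals, and promoters dense in CG are open in most cell types. The first pair had no peak in any library and is poor in CG: Pou5f1 at chr17:35505782-35506081 (plus strand) and Nanog at chr6:122707239-122707538 (plus strand). The next is Ddx4 at chr13:112652261-112652560 (minus strand, at its inner TSS), which also had no peak but is the richest in CG of the genes with a sequence. The last pair had a promoter peak in every library and is rich in CG: Dazl at chr17:50293571-50293870 (minus strand) and Sox2 at chr3:34649745-34650044 (plus strand). The Sox2 peak lay over the TSS. The Dazl peak lay 208 to 294 bp inside the gene, within 1 kb of the TSS but outside the printed bases.
Pou5f1: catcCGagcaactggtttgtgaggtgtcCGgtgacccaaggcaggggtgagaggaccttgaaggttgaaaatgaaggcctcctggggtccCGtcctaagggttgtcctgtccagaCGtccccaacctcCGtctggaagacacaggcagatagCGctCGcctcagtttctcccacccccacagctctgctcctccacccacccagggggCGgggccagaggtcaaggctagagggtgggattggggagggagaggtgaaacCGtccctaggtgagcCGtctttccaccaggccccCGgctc
Nanog: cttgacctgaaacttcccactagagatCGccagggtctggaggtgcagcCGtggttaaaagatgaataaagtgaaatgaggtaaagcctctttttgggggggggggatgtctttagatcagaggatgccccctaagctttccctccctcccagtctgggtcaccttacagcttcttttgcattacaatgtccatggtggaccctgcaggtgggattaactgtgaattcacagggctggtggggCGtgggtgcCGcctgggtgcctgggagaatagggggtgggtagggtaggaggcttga
Ddx4: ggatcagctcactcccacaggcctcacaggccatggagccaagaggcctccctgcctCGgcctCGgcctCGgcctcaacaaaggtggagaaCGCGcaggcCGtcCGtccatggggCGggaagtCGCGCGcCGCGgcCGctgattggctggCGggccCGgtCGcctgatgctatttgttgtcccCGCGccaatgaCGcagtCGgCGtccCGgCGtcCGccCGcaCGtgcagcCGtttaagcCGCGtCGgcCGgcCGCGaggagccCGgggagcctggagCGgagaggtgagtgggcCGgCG
Dazl: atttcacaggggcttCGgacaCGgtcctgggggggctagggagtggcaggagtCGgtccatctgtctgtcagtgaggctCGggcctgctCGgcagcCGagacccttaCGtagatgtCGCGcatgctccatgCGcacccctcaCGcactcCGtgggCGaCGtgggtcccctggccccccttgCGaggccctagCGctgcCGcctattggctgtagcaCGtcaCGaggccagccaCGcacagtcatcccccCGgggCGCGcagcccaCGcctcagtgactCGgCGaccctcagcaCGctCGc
Sox2: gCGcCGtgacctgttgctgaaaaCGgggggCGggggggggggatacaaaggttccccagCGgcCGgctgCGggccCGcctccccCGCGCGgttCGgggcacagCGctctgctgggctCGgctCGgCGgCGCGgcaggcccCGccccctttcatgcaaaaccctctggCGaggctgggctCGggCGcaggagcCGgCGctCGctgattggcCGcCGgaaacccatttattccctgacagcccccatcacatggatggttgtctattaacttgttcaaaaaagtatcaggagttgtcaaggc

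Pou5f1, the POU-domain factor at the centre of the pluripotency circuit, spans chr17:35506032-35510777. Its nearest peak was 7518, 7342, 7582 and 7297 bp from its nearer TSS in Nedd4L-cKO replicates 1 to 4 and 7506, 7541 and 7558 bp away in WT replicates 1 to 3. This is a single region, chr17:35516104-35517966, called in all 7 libraries, which holds the TSSs of the neighboring genes Tcf19 and Cchcr1. Its pileup, the mean coverage by extended tags, was at percentile 87.8 to 91.6 of all peaks of its library. The open chromatin in the Pou5f1 window thus lay over start sites of other genes, and the gene itself and the 10 kb before it held no peak. RefSeq names 7 pseudogenes after Pou5f1, 2 each after Nanog and Tdgf1, and 1 each after Zfp42 and Dppa3. Reads with a mapping quality of 30 or less were dropped by the authors, so the absence of peaks is less certain at these genes than at the other 5, and this was not tested.

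Nanog, the homeobox partner of Pou5f1 and Sox2, spans chr6:122707489-122714633. A region 4053 bp upstream of its TSS, chr6:122702121-122703436, was called in all 7 libraries. Its pileup percentile was 33.2, 25.8, 22.7 and 41.9 in the cKO libraries and 24, 19.9 and 29.99 in the WT libraries, so the genotypes overlapped. Weak peaks within the gene (1 library) and downstream of it (3 libraries) stayed at percentile 13.1 to 18.8.

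Zfp42 (also called Rex1), a zinc finger gene used as a marker of the ground state of pluripotency, was the only one of the 10 whose window held no peak in any library. It spans chr8:43295067-43307009. The nearest peak was 692200, 692282, 775276 and 1372602 bp from its TSS in the cKO libraries, in ascending order, and 692443, 692443 and 692511 bp in the WT libraries. Only 742 of 21440 genes lay at least as far from a peak, and the nearest protein-coding genes on either side, Triml2 and Adam26b, had no promoter peak either. For comparison, the median distance was 51788 bp over the 6719 genes without a promoter peak, and 3 in 4 of all genes lay within 9058 bp of one.

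Tdgf1 (also called Cripto), the co-receptor for Nodal, spans chr9:110939608-110946158. Its window held a peak in all 7 libraries, chr9:110953458-110954999, but this lies 7300 bp upstream within the span of Lrrc2, at percentile 56.1 to 73.2. A small peak within the gene, 1421 bp from the TSS, was called in cKO replicate 4 and WT replicate 3 alone, at percentile 19.8 and 7.09.

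Ddx4 (also called Vasa), an RNA helicase of germ cells, spans chr13:112598333-112652633. Its nearest peak lay 7512 to 7637 bp upstream of its outermost TSS in the 7 libraries, at chr13:112660145-112661458. That region holds the TSS of Slc38a9, an amino acid transporter gene transcribed in the opposite direction, and was strong, at percentile 91.1 to 94.1. A second region deep within Ddx4, chr13:112618285-112619027, was called in 6 of 7 libraries at percentile 4.4 to 40.7.

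**Figure D2:**
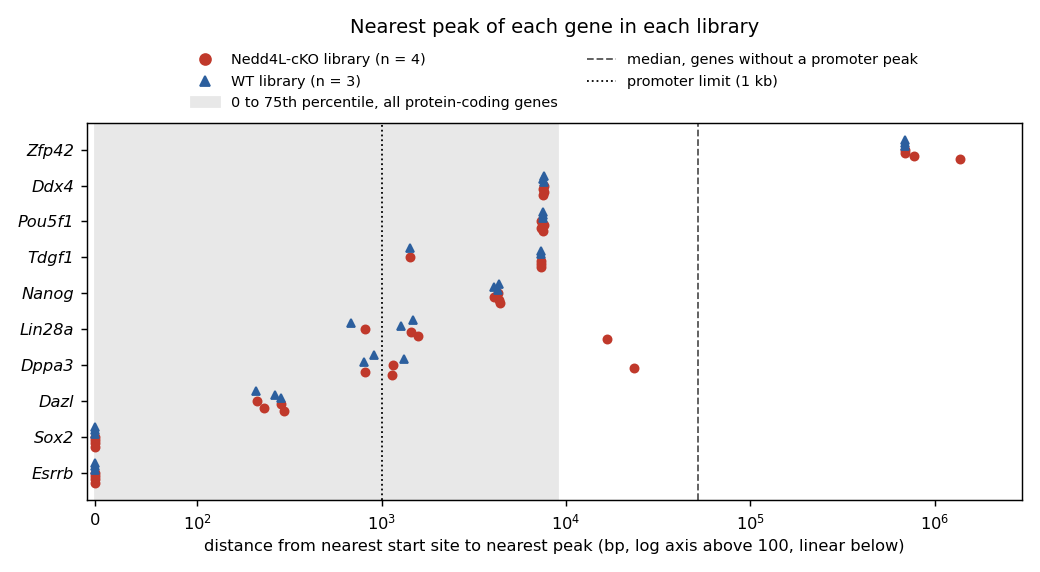
Distance from the nearest start site to the nearest peak (x axis, bp, logarithmic above 100) for each gene in each library, with circles for Nedd4L-cKO and triangles for WT. Zfp42 lies at 692200 bp or more in every library, Ddx4 and Pou5f1 near 7.5 kb, and Sox2 and Esrrb at 0.

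Sox2, which binds DNA together with Pou5f1, had a peak over its TSS in all 7 libraries, within chr3:34649274-34651408. The region also lies in the span of the noncoding gene Sox2ot. Its pileup percentile was 35.3, 29.9, 41.6 and 46.4 in the cKO libraries and 50.4, 49.6 and 48.4 in the WT libraries, and every cKO value was below every WT value. It was weak for a promoter: only 5.97% of the promoters with a peak in all libraries had a lower mean percentile, and their median was 86.7. Ranked by fold enrichment, the ratio of pileup to local background, the region fell to a median percentile of 10.6 from 46.4 by pileup, and its −log10 q was 1.67 to 4.01. The other peaks in the window, 1761 to 8850 bp upstream, were each called in 1 to 3 libraries at percentile 11.0 to 29.6.

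Esrrb, an orphan nuclear receptor that supports the pluripotency circuit, had the richest window, with 8 regions over its span of 160512 bp at chr12:86361117-86521628 and 6 of them in all 7 libraries. Its outermost TSS had a peak in cKO replicates 1 and 2 alone, at percentile 1.24 and 1.80, and this region also holds the TSS of the long noncoding RNA gene Gm40483. An internal TSS at position 86421644 carried the promoter call, with percentile 55.7, 55.5, 61.1 and 62 in the cKO and 65.2, 65.9 and 59.8 in the WT libraries. These overlap between genotypes. The strongest region of the gene, chr12:86482944-86484581, lay 61300 bp from the internal TSS and at percentile 66.8 to 80.4. By the outermost TSS alone, Esrrb would have a promoter peak in 2 libraries and not in 7.

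Dazl, an RNA-binding protein that controls translation in germ cells, had the strongest promoter peak of the 10 genes. The region chr17:50291618-50293412 began 208 bp inside the gene and was called in all 7 libraries. Its pileup percentile was 79.7, 76, 75.03 and 81.4 in the cKO libraries and 76.3, 79.1 and 78.4 in the WT libraries. By fold enrichment it ranked higher still, at a median percentile of 97.0, and its −log10 q was 12.6 to 19.1. No other protein-coding TSS lies in this peak, and the nearest protein-coding genes, Rftn1 and Plcl2, are 88895 and 215244 bp away. In every library it was the only peak in the window.

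Dppa3 (also called Stella), a maternal factor and marker of primordial germ cells, and Lin28a, which blocks maturation of the let-7 miRNAs, sat at the edge of the call. A region within Dppa3, chr6:122627226-122628378, was called in 6 libraries, but it reached within 1 kb of the TSS only in cKO replicate 2 and WT replicates 1 and 3, at percentile 1.25, 6.68 and 33.4. Lin28a had an upstream region, chr4:134019881-134020972, in 6 libraries, at percentile 0.537, 1.87 and 8.76 in cKO replicates 2 to 4 and 20.4, 7.96 and 20.9 in the WT libraries. It came within 1 kb in cKO replicate 4 and WT replicate 2. With a promoter of 2.5 kb on each side both genes had a peak in 6 libraries, and with 500 bp neither had one in any library. The strong region downstream of Lin28a, chr4:134000352-134001931 at percentile 84.9 to 92.3, holds the TSS of Dhdds.

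**Figure D3:**
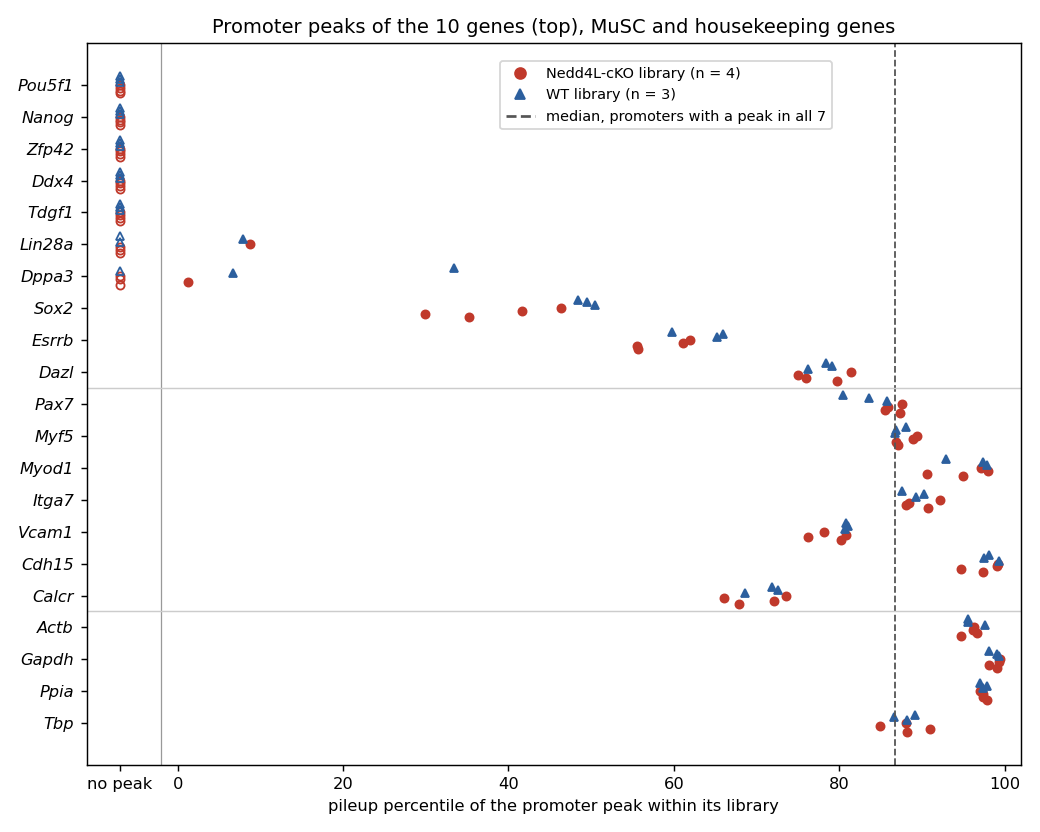
Percentile of pileup within the library (x axis) of the promoter peak of each gene, with circles for Nedd4L-cKO and triangles for WT, open symbols at the left for libraries without a promoter peak, and a dashed line at 86.7, the median of promoters with a peak in all libraries. Every symbol of the 10 genes (top) is left of the line, as are those of Vcam1 and Calcr, while Myod1, Itga7, Cdh15, Actb, Gapdh and Ppia are right of it and Pax7, Myf5 and Tbp lie close to it.

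**Figure D4:**
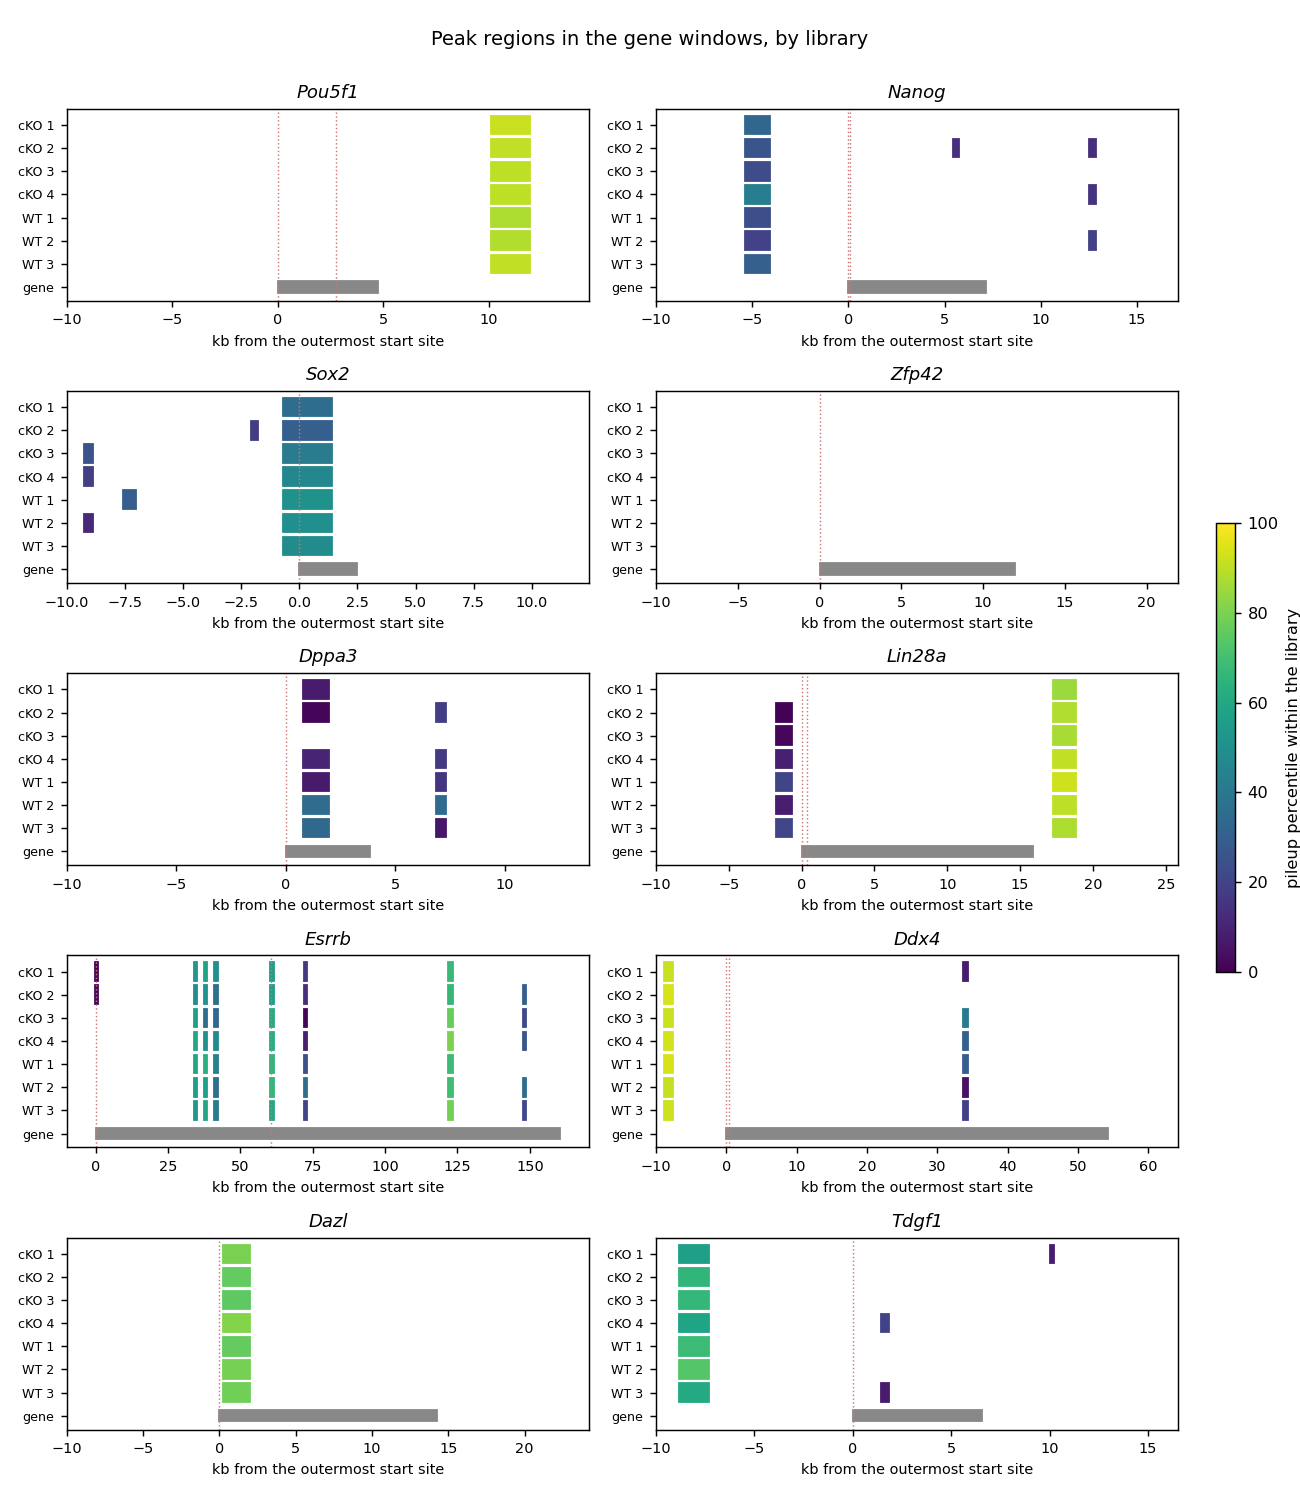
Peak regions (bars) by library (rows) in the window of each gene, against distance in kb from its outermost start site in the direction of transcription, with color for the pileup percentile of the library's peak, a grey bar for the gene span and dotted lines for start sites. A bar spans the region merged over libraries, and Zfp42 has none.

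Several of the strong regions belonged to neighbors. Nanog and Dppa3 are each other's neighbors. Of the other 18 nearest protein-coding genes on either side, 11 had a promoter peak in all libraries, 1 in some and 6 in none. Among all protein-coding genes the shares were 63.4%, 5.26% and 31.3%, so these counts do not set the neighbors apart. Pou5f1, Lin28a and Ddx4 each had within the window a promoter peak of another gene (Tcf19 with Cchcr1, Dhdds and Slc38a9) at percentile 84.9 or more, above every peak of the 10 genes themselves.

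No difference between the 2 genotypes was detected in how much open chromatin the windows held. The 10 windows held 17, 21, 17 and 21 peaks in the cKO and 18, 20 and 19 in the WT libraries, a difference of means of 0 (exact permutation test, two-sided, p = 1, where the smallest p that 35 relabelings allow is 0.0286). It was −3 with broad peaks that hold a narrow peak (exact permutation p = 0.143) and −1.5 with equal peak numbers (exact permutation p = 0.114). Peaks covered 17067.5 ± 1114 bases (SD, n = 4) in the cKO libraries, and 16794.7 ± 1519 bases (SD, n = 3) were covered in the WT libraries, 272.8 fewer on average (exact permutation p = 0.771). For each gene the number of peaks gave an adjusted p = 1 (exact permutation tests, Benjamini-Hochberg adjustment over the 10 genes). The per-gene tests could not decide the question. Even at the smallest exact permutation p of 0.0286, no gene could have passed on its own after adjustment over 10 genes. Counts for Pou5f1, Zfp42 and Dazl were the same in every library, which fixed their p. No conclusion on individual genes is drawn from these tests. The largest differences of means were Dppa3 with 1.25 against 2.00 and Esrrb with 7.25 against 6.67 peaks, cKO against WT. The Dppa3 difference of −0.75 shrank to −0.333 without cKO replicate 3, and that of Esrrb, 0.583, to 0.333 without cKO replicate 2 and 0.25 without WT replicate 1. Within lane 1, without WT replicate 3, the difference of means was 0 peaks and −602.5 bases.

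Region by region, the windows held 26 regions merged over libraries, of which 13 were called in all 7 libraries. None was called in all cKO and no WT library or the reverse, against 0.0694% and 0.082% of all 95163 regions. In the 13 shared regions, ranks of pileup were turned to normal scores within each library and tested with limma over all 53245 shared regions. None of the 13 passed an adjusted p of 0.05 (limma, Benjamini-Hochberg), and neither did any of the 53245 (0% called, with 2.71% at an unadjusted p under 0.05). In 2 of the 13 every cKO library ranked below every WT library, a pattern of 1.37% of shared regions, and in none did every cKO library rank above, which 1.85% did. One was the Sox2 promoter region, at percentile 38.3 ± 7.20 (SD, n = 4) in the cKO libraries and at 49.5 ± 1.01 (SD, n = 3) in those from WT mice. The cKO minus WT difference was −0.37 ± 0.12 (SE) normal-score units (limma, unadjusted p = 0.0169, adjusted p = 1.0). The other was the Esrrb region at chr12:86433030-86433731, at 9.94 ± 6.56 (SD, n = 4) in cKO and 26.9 ± 7.80 (SD, n = 3) in WT libraries, a difference of −0.97 ± 0.34 (SE; limma, unadjusted p = 0.0226, adjusted p = 1.0). Within lane 1 the differences were −0.38 and −1.10. These were also the only 2 of the 13 with an unadjusted p under 0.05.

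Genes that share the 2 programs were read the same way. Of 26 other pluripotency genes, 13 (50%) had a promoter peak in all libraries, 6 in some and 7 (26.9%) in none. Among all protein-coding genes the shares were 63.4%, 5.26% and 31.3%, so the share without a peak was near that of all genes. Of the 13, the highest mean percentiles were those of Tbx3 (93.4), Klf2 (90.9), Klf4 (89.0), Tet1 (87.7) and Klf5 (85.9), genes that also act in many adult tissues. Those without a peak in any library were Sall4, Nr0b1, Dppa2, Dppa4, Dppa5a, Gdf3 and Fbxo15, and the DNA-binding pair Dppa2 and Dppa4 lay 170495 and 143956 bp from a peak in the median library. Nr5a2 and Dnmt3l had a peak in 5 libraries, Eras in 4, and Fgf4, Lefty1 and L1td1 in 3. The 3 libraries with an L1td1 peak were the 3 WT libraries, where it was weak, at percentile 2.40, 6.14 and 8.35. It was called in 1 WT library with a promoter of 500 bp or with peaks that hold a narrow peak, and in 0 at −log10 q of at least 5. A promoter peak in all WT and no cKO library occurred at 4 of 21440 genes (0.0187%), and the reverse at 2 (0.00933%).

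Of 34 other germline genes, 23 (67.6%) had no promoter peak in any library, 5 had one in some and 6 (17.6%) in all. Among all protein-coding genes the shares were 31.3%, 5.26% and 63.4%. The 23 include the synaptonemal complex genes Sycp1, Sycp2 and Sycp3, the piRNA pathway genes Mael, Piwil1, Piwil2 and Tdrd1, and Nanos2 and Nanos3. Sycp3, Tdrd1 and the egg coat gene Zp3 had a peak in all 7 libraries with a promoter of 2.5 kb on each side, at a median of 1200, 1628 and 2078 bp. The 6 were Gdf9 (mean percentile 95.7), Tex14 (83.6), Prdm1 (80.9), Boll (70.3), Piwil4 (53.8) and Dmc1 (18.9). The peak at Gdf9 also held the TSS of Uqcrq, a subunit gene of the respiratory chain, and that at Tex14 held the TSS of the DNA repair gene Rad51c, in all 7 libraries, while the other 4 peaks held no other protein-coding TSS. With the outermost TSS alone Piwil4 and Stra8 had a peak in 0 libraries, and at −log10 q of at least 5 Dmc1 had it in 0. Boll belongs to the same gene family as Dazl, and both were open in all libraries. Stra8 had a peak in 6 libraries, Kit, the stem cell factor receptor gene, in 5, Smc1b and Rec8 in 4 and Nobox in 1.

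Density of CG varied widely among the promoters. The ratio of observed CG to the number expected from the C and G content was 0.978 at Ddx4, 0.819 at Sox2 and 0.795 at Dazl, and between 0.181 and 0.545 at the other 9 promoters in the table, which covers 9 of the 10 genes. Over all 21263 promoters, 96.8% of those at 0.8 or more had a peak in every library and 1.60% had none, while of those under 0.4 only 19.3% had a peak in every library and 72.6% had none. Pou5f1 (0.374 and 0.388), Nanog (0.192 and 0.181) and Lin28a (0.351) thus fell in the class where most promoters had no peak. The Lin28a ratio is that of its inner TSS, which had no peak in any library. Its outermost TSS, with a peak in 2 libraries, was not covered. Zfp42 (0.441) and Tdgf1 (0.545) had no promoter peak in any library but fell in the class from 0.4 to 0.6. In that class 68.4% of promoters had a peak in every library and 23.6% had none. Ddx4, with 38 CG and 72% G or C, was 1 of 96 promoters at 0.8 or more without a peak in any library. These Ddx4 values are those of its inner TSS. The outermost Ddx4 TSS was not covered and had no peak in any library either. The internal Esrrb promoter was the reverse, open in all libraries at a ratio of 0.318.

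Ddx4 was not alone among germline genes. With a limit of 0.6, chosen after the values were seen, 11 of 18 CG-rich promoters of the other germline genes, or 9 of 15 genes, had no peak in any library, against 3% of all 10137 promoters at that ratio. The table covers 29 of the 34 genes. Among them were Taf7l (1.03), Sycp1 (0.874), Tdrd1 (0.810 and 0.733), Mael (0.780), Brdt (0.738) and Hormad1 (0.713), genes of meiosis and of spermatogenesis. Prdm1, Tex14 and Boll were the CG-rich germline genes with a peak in all libraries. DNA methylation was not measured in these libraries.

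**Figure D5:**
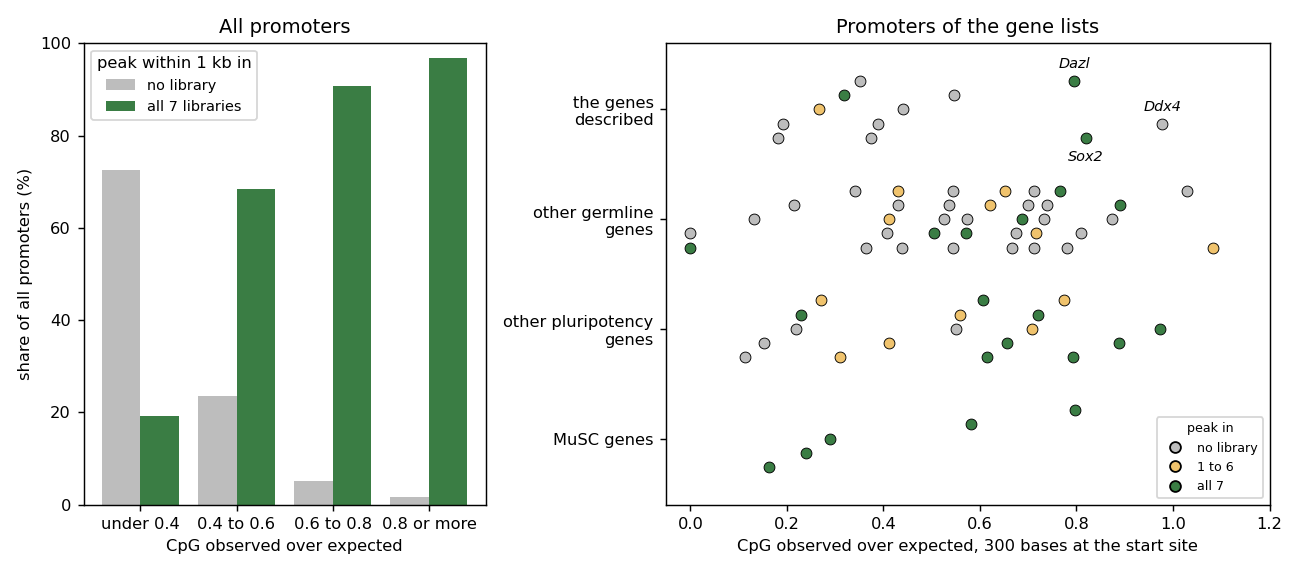
Left, share of all promoters (y axis, percent) without a peak in any library (grey) and with one in all 7 (green) by the ratio of observed to expected CG. Right, that ratio (x axis) for each promoter of the gene lists, colored by the libraries with a peak, where height within a list only separates points. Ddx4 at 0.978 is grey among promoters of which 96.8% are green.

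Short motifs were searched in the same 300 bases on both strands and are given with the share of all promoters that hold them. The octamer ATGCAAAT, the classical site of POU factors (1.66% of promoters), was found in Zfp42, at position −186 from the TSS. ACAATG, a core recognized by SOX proteins (11.0%), was found in Nanog, Pou5f1, Lin28a and Esrrb. In Esrrb it was at the outermost promoter alone. In Pou5f1 it was at the inner promoter alone (TSS at position 35508807), and not in the sequence printed above. The E-box CACGTG (7.84%) and the E2F-type TTCCCGC (5.95%) were found in Ddx4 alone, where the latter overlaps a GC box. The GC box itself, GGGCGG (46.2%), was found in Ddx4, Lin28a, Pou5f1, Sox2, Tdgf1 and Zfp42, whereas TGACGTCA (2.23%) and TATAAA (12.6%) were found in none. A match here is a string of letters and not a bound site.

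The protein-coding genes most like the 5 genes with a promoter peak in any library were those with the smallest mean absolute difference in promoter percentile over the 7 libraries, with 0 where there was no peak. For Dazl they were Dpysl5, 1700016H13Rik and Dtd1, with differences of 0.967 to 1.13 percentile points. For Esrrb they were Rad54b, Ccdc30 and Gbx2 (1.35 to 1.68), and for Sox2 they were Grm4, Lmtk3 and Aqp3 (3.36 to 3.48). Lin28a was most like Slitrk3, Chrm5 and Qrfprl (1.04 to 1.22), and Dppa3 most like Rhox11, Cd74 and Rsph14 (1.59 to 2.08), with peaks in 1 or 2 libraries.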

How the data were processed

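The authors made ATAC-seq libraries from 5000 sorted MuSCs each (4 Nedd4L-cKO, 3 WT, grouped and numbered by their labels). Per the labels and the study's methods, reads were trimmed (Trimmomatic 0.39), aligned to mm10 (BWA-MEM 0.7.17), filtered at a mapping quality over 30 with SAMtools and freed of duplicates (Picard 2.26.3). Per the file headers, the authors called broad peaks library by library, with no control sample, using MACS2 2.2.7.1 (shift −100, extension 200, q 0.1 for broad and 0.05 for narrow peaks, paired-end mode off). The deposited pileup is a signal, the coverage by extended tags, not scaled to depth. The deposited fold is a ratio to local background, and the deposited p-value and q-value are given as −log10.

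The 2 mitochondrial peaks of each library were left out. Gene spans and promoter sequences came from RefSeq on GRCm38.p6, the assembly of mm10, and strands of genes without a sequence from GENCODE. The promoter table held 9 of the 10 genes. TSSs were those of that table plus the outer end of the span, and overlap was at least 1 bp. Whether a peak lay in an exon or an intron was not analysed here. Percentiles rank all peaks of a library by pileup. No 2 libraries shared an identical peak. Per-library values were compared by exact permutation tests, and ranks of regions with limma 3.58.1 in R 4.3.3 over all shared regions, tested on simulated data. All 7 libraries entered without covariates. The study's methods count as many mice as libraries in each genotype, so libraries were taken as separate mice. Other work ran in Python 3.11.15, numpy 2.4.6, pandas 2.3.3, scipy 1.17.1 and matplotlib 3.10.9.

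The genes and lists were chosen with earlier results of these data known. Named were the 10 genes, genes of the lists with a peak in all libraries (the 5 highest where over 8) or in some, neighbors, and the 3 most alike in promoter percentile. Genes without a peak were named as examples after their values were seen. The housekeeping list held 1 more gene, which was left out of all counts and is not reported here. Alternatives were promoters of 500 bp and 2.5 kb, flanks of 5 and 50 kb, −log10 q of at least 5, equal peak numbers, peaks with a narrow peak, the outermost TSS, fold for pileup, other limma options, a replicate block, and leaving out each library.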

Additional observations from a re-analysis of the deposited data

Results flagged for a closer look

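In 8 of 30 measures that varied among the 4 Nedd4L-cKO libraries, one library lay far from the other 3, its gap to the nearest being above Dixon's 95% critical value for 4 samples as a share of the range. For normally distributed values, chance gives such a library in about 1 in 20 groups. That rate does not hold for peak counts, which always pass the limit where 3 libraries share a count and 1 differs. The counts for Sox2, Lin28a, Esrrb and Ddx4 below were of this kind. Distances need not follow that rate either, as they jump where a near peak is called in some libraries and not in others. The 3 WT libraries are too few to be read this way. Nedd4L-cKO replicate 1 stood apart in 4 measures. Its nearest peak to Zfp42 was 1372602 bp away against 692200 to 775276 bp, its nearest to Lin28a was 16651 bp away against 808 to 1576 bp, and it had 1 peak in the windows of Sox2 and of Lin28a against 2 in each of the others. For Lin28a the distance and the count come from the same region, chr4:134019881-134020972, which was not called in this replicate. In replicate 2 the Esrrb window held 8 peaks against 7, and the Ddx4 window 1 against 2. In replicate 3 the nearest peak to Dppa3 was 23379 bp away against 812 to 1155 bp. In replicate 4 the nearest peak to Tdgf1 was 1421 bp away against 7300 to 7351 bp, as in WT replicate 3, where it was 1427 bp.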

How the results depend on the processing

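With peaks of −log10 q of at least 5 alone, 8 of the 10 genes had no promoter peak in any library (38.5% of all genes) in place of 5, with Esrrb and Dazl left, and 15 of 26 other pluripotency genes had none in place of 7. The difference in covered bases, cKO minus WT, was 272.8 and reversed to −1233 with broad peaks that hold a narrow peak (exact permutation p = 0.286), −577.7 with equal peak numbers, −83.3 with a 5 kb flank and −88.3 within the replicate block of 3 same-numbered pairs. It ran from −602.5 (without WT replicate 3) to 757 when each library was left out, and was −88.3 without cKO replicate 4. None of these passed a test, and the cause was not tested. The block of 3 pairs could not pass, since the smallest p its exact sign-flip test allows is 0.25. With a library left out, too few relabelings remain for a permutation p under 0.05, so those tests could not pass either.

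Same-numbered libraries did not deviate together (r of −0.218, 0.098 and −0.241), so the numbers were not taken to pair the samples. The replicate block called 0 regions, as did every other limma setting.

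Peaks per window, with a main difference of 0.0833 for Sox2, 0.583 for Esrrb and −0.25 for Ddx4, reversed to −0.25 for Sox2 without WT replicate 3, and at −log10 q of at least 5 to −0.667 for Esrrb and 0.25 for Ddx4. Among the 13 shared regions, none of which passed the test under any setting, small rank differences reversed in 5. For the Esrrb region at position 86395142 the difference was 0.33 by fold. For that at 86402074 the range on leaving out each library was −0.0698 to 0.105. For that at 86482944 it was −0.0318 under the block and from −0.0336 to 0.140 with libraries left out. The Slc38a9 promoter region in the Ddx4 window ran from −0.0424 to 0.0711. The Dazl region was −0.15 by fold, −0.0156 under the block and from −0.0282 to 0.0314 with libraries left out. The Sox2 and Esrrb regions with all cKO libraries below WT ran from −0.41 to −0.27 and from −1.17 to −0.69 and did not reverse. By fold, every cKO library still ranked below every WT library in that Esrrb region but not in the Sox2 region. Ranking by fold in place of pileup, an alternative chosen after seeing the data, moved the median percentile of all 13 by more than 1 SD over libraries.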
